A study of Mus musculus with 6 samples.

Results

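Death receptor 5, CD40 and 4-1BB are receptors of the tumor necrosis factor (TNF) receptor family that agonist antibodies can engage, and antibodies to all of them have been combined as an experimental therapy of mouse tumors. The 10 genes described here encode these receptors, the related death receptor Fas, the ligand of each receptor, and the enzyme and inhibitor that act just below the death receptors: Tnfrsf10b, Tnfsf10, Fas, Fasl, Casp8, Cflar, Cd40, Cd40lg, Tnfrsf9 and Tnfsf9. They were taken by name from the 19938 genes measured, and all 10 were present with a transcript cluster (the set of array probes summarised as 1 value) that the platform annotation pairs with that gene alone. They were compared between tumors of Renca, a mouse renal carcinoma cell line, grown in BALB/c mice at 2 sites. Cells were injected into the outer cortex of the kidney to give 3 intrakidney tumors, or under the skin to give 3 subcutaneous tumors. Each tumor came from its own mouse and was frozen 12 days after injection. The labels name no allele, transgene, drug or antibody in either group, and they give neither the age nor the sex of the mice.

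Death receptors carry a cytoplasmic death domain. When TRAIL, encoded by Tnfsf10, binds death receptor 5, or Fas ligand binds Fas, the adaptor FADD recruits caspase-8, which activates the executioner caspases, and the caspase-like protein c-FLIP, encoded by Cflar, competes for the same complex. CD40 and 4-1BB have no death domain. They signal through TRAF adaptors to NF-kB: CD40 licenses dendritic cells, macrophages and B cells when it meets CD40 ligand on activated helper T cells, and 4-1BB, encoded by Tnfrsf9, is induced on activated T and NK cells and meets its ligand, encoded by Tnfsf9, on antigen-presenting cells.

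Between intrakidney and subcutaneous tumors, 0 of these 10 genes had an adjusted p under 0.05 (limma over all 19938 genes, Benjamini-Hochberg adjustment), against 0.231% of all genes. At an unadjusted p of 0.05 the count was 2, Casp8 and Tnfsf9, both higher in intrakidney tumors, against 8.43% of all genes. The mean of 7 genes lay higher and that of 3 lower in intrakidney tumors, and 48% of all genes had a higher mean there. The median log2 fold change (intrakidney minus subcutaneous) of the 10 genes was 0.02, against -0.006 for all genes, and its median size was 0.05, against 0.08 for all genes. The 95% confidence interval lay within a 1.5-fold difference in either direction for 9 of the 10 genes, and for Tnfrsf9 it reached beyond that. The intervals are those of single genes and are not widened for the number of genes looked at.

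**Figure D1:**
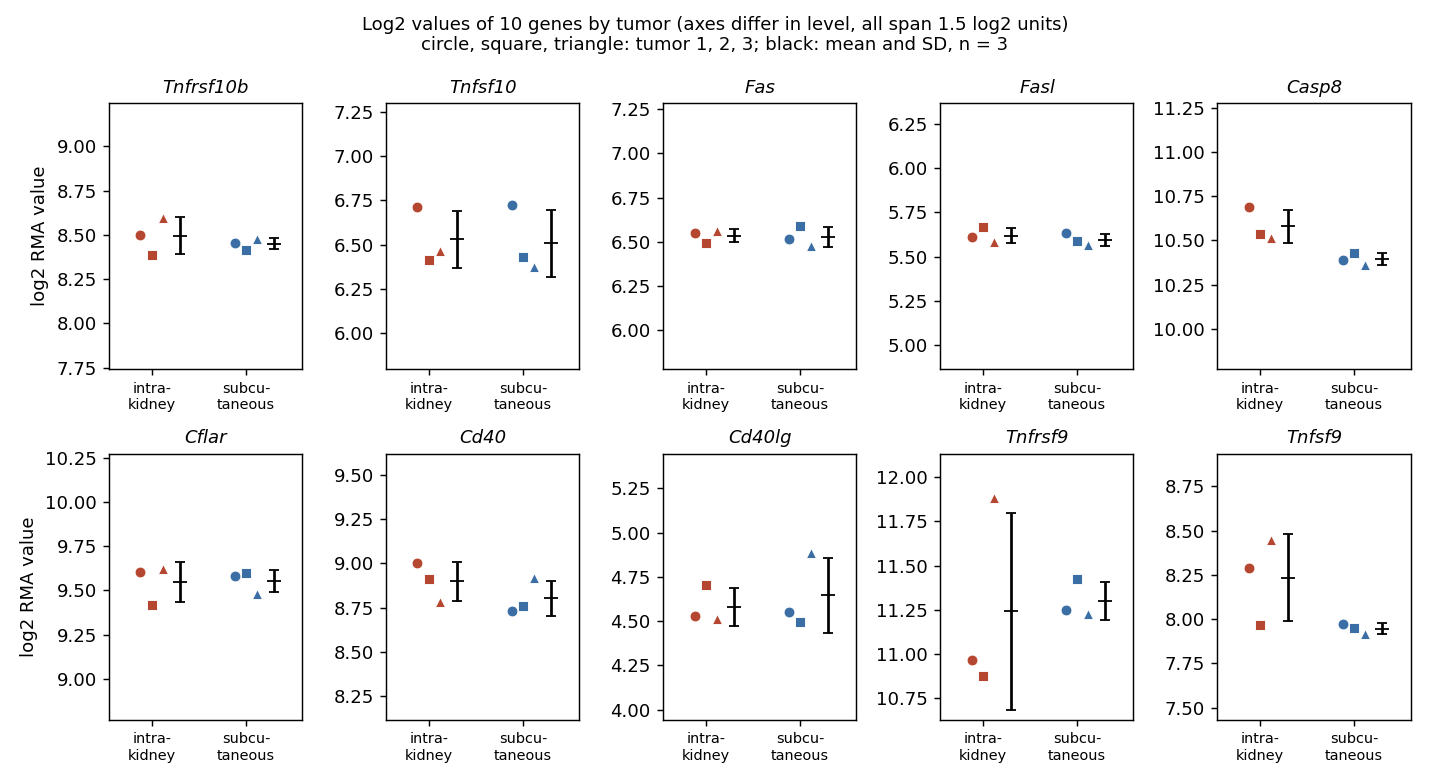
Log2 RMA values (vertical axis, a span of 1.5 log2 units in every panel) of the 10 genes in each intrakidney and subcutaneous tumor, with the mean and SD of 3 tumors in black. Only the Casp8 groups do not overlap, and intrakidney tumor 3 stands above the other 5 tumors for Tnfrsf9.

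**Figure D2:**
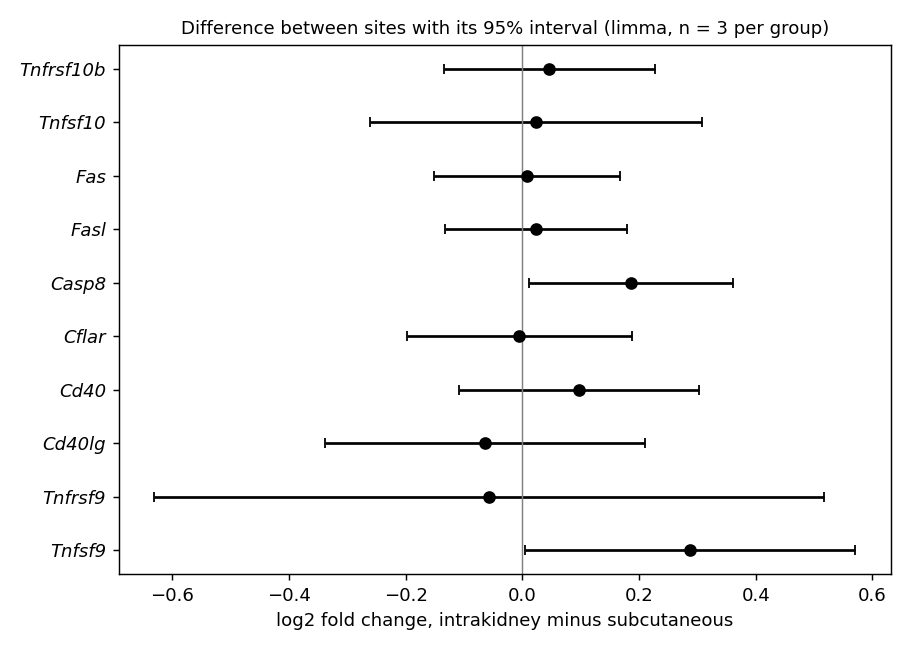
Log2 fold change, intrakidney minus subcutaneous, of the 10 genes (points) with its 95% confidence interval from limma (bars, n = 3 per group). The intervals of Casp8 and Tnfsf9 lie just above 0, the other 8 include 0, and that of Tnfrsf9 is the widest of the 10.

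Across the 19938 genes, which are not independent replicates, Pearson correlations between arrays ran from 0.991 to 0.994 within the intrakidney group, from 0.995 to 0.997 within the subcutaneous group and from 0.990 to 0.996 across groups. Over all genes, 46 were past the adjusted threshold, a count that was 2, 3 and 4 without subcutaneous tumors 1, 2 and 3 and 21 without intrakidney tumor 1. The 8 genes used as markers of the carcinoma (Krt8, Krt18, Epcam, Cdh1, Pax8, Pax2, Lcn2 and Vim) had array means of 10.54 to 10.76 in intrakidney and 10.58 to 10.64 in subcutaneous tumors. Kidney tubule genes averaged 6.35, 6.77 and 7.32 for intrakidney tumors 1, 2 and 3, against 6.20 to 6.41 for subcutaneous tumors, so intrakidney tumors 2 and 3 lay above the subcutaneous range and tumor 1 within it (two-sided exact permutation p = 0.2). A value is the mean over all cells of a tumor, in which fewer cells of a type and less RNA per cell cannot be told apart, and values of different transcript clusters are not on a common scale.

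Tnfrsf10b (transcript cluster 10416230) encodes death receptor 5, the TRAIL receptor of the mouse that carries a death domain. Its log2 values were 8.50, 8.39 and 8.60 in intrakidney tumors 1, 2 and 3, against 8.46, 8.42 and 8.48 in subcutaneous tumors 1, 2 and 3. The subcutaneous values lie inside the span of the intrakidney values. The difference was 0.05 ± 0.08 (SE, adjusted p = 0.943 by limma), and its interval ran from 1.10-fold lower to 1.17-fold higher in intrakidney tumors.

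Tnfsf10 (10491091), the gene of the ligand TRAIL, measured 6.72, 6.41 and 6.46 in intrakidney tumors, against 6.72, 6.43 and 6.37 in subcutaneous tumors. In both groups tumor 1 was the highest, and the groups overlap almost completely. The log2 fold change was 0.02 ± 0.12 (SE, adjusted p = 0.986 by limma). The spread within a site (SD of 0.16 among intrakidney tumors and 0.19 among subcutaneous ones, n = 3 each) exceeded the difference between sites.

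Fas (10462603), the receptor of Fas ligand, had the smallest spread over the 6 tumors of any of the 10 genes except Fasl. It measured 6.55, 6.50 and 6.56 in intrakidney tumors, against 6.52, 6.59 and 6.48 in subcutaneous tumors. The log2 fold change was 0.008 ± 0.068 (SE, adjusted p = 0.993 by limma), with an interval from 1.11-fold lower to 1.12-fold higher.

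Fasl (10359434), the gene of Fas ligand, a death ligand of cytotoxic T cells and NK cells, measured 5.61, 5.67 and 5.58 in intrakidney tumors, against 5.63, 5.59 and 5.57 in subcutaneous tumors. All 6 values lie within 0.10 log2 units. The cytotoxic and NK marker list had array means of 5.91 to 6.17 in intrakidney and 6.08 to 6.13 in subcutaneous tumors, with 0 of 10 genes past the adjusted threshold (two-sided exact permutation p = 0.4). In that list the lowest unadjusted p values were those of the interleukin receptor gene Il2rb, which differed by -0.47, and the NK receptor gene Klrb1c, which differed by -0.30 (adjusted p = 0.404 and 0.770 by limma). Of the 10 genes of the list, 4 had higher and 6 lower means in intrakidney tumors, with a median log2 fold change of -0.08.

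The Fas, Fasl and Tnfsf10 rows, like that of Cd40lg, lay below the median of all values on the arrays (7.09), and RMA compresses changes of such dim rows. The values carry no detection calls, so whether these 4 rows stood above array background was not settled, and a narrow interval there bounds the measured value, not the RNA.

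Casp8 (10346564), the initiator caspase of the death receptor complex, was the only member whose groups did not overlap, a state that 14.9% of all genes showed, 8.41% with the intrakidney tumors higher. It measured 10.69, 10.54 and 10.52 in intrakidney tumors, against 10.39, 10.43 and 10.36 in subcutaneous tumors. The lowest intrakidney tumor thus lay above the highest subcutaneous tumor. The means were 10.58 ± 0.09 for intrakidney and 10.39 ± 0.03 for subcutaneous tumors (SD, n = 3 each), a 1.14-fold difference. The log2 fold change of 0.19 ± 0.08 (SE) had an unadjusted p of 0.0399 in the limma fit and did not pass after adjustment (adjusted p = 0.565). Its interval ran from 1.01-fold to 1.28-fold higher.

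Cflar encodes c-FLIP, which resembles caspase-8 but lacks its protease activity. It was measured by 3 transcript clusters, and the brightest (10497931) gave 9.60, 9.42 and 9.62 in intrakidney tumors, against 9.58, 9.60 and 9.48 in subcutaneous tumors. The groups overlap, and the log2 fold change was -0.005 ± 0.083 (SE, adjusted p = 0.996 by limma). The other two clusters gave the opposite sign at a similarly small size, 0.05 ± 0.12 for 10346562 and 0.05 ± 0.09 for 10346551 (SE), with adjusted p values of 0.987 and 0.983 when limma was run on every transcript cluster. On all 3 clusters intrakidney tumor 2 was the lowest intrakidney tumor and subcutaneous tumor 3 the lowest subcutaneous one.

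Cd40 (10478678), the receptor that antigen-presenting cells use to receive T cell help, measured 9.0, 8.91 and 8.78 in intrakidney tumors, against 8.73, 8.76 and 8.92 in subcutaneous tumors. The highest subcutaneous tumor lay above the lower pair of intrakidney tumors. The means were 8.90 ± 0.11 for intrakidney and 8.80 ± 0.10 for subcutaneous tumors (SD, n = 3 each), and the log2 fold change was 0.10 ± 0.09 (SE, adjusted p = 0.858 by limma), with an interval from 1.08-fold lower to 1.23-fold higher.

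Markers of the cells known to carry CD40 were set beside it. B cell genes had array means of 5.84 to 5.90 in intrakidney and 5.73 to 5.98 in subcutaneous tumors, dendritic cell genes 7.16 to 7.36 in intrakidney and 7.22 to 7.31 in subcutaneous tumors, and macrophage genes 10.39 to 10.58 in intrakidney and 10.34 to 10.43 in subcutaneous tumors (two-sided exact permutation p = 0.8, 1 and 0.3, where 0.1 is the smallest that 3 against 3 allows). None of their 7, 8 and 8 measured genes passed the adjusted threshold. The nearest were Ccr7, the receptor that guides mature dendritic cells and naive T cells to lymph nodes, at -0.45 ± 0.06, and Cd14, a lipopolysaccharide co-receptor of monocytes and macrophages, at 0.44 ± 0.07 (SE, adjusted p = 0.0587 and 0.0744 by limma). B cell genes were led by Ms4a1 at 0.30 and Cd79a at -0.24, in opposite directions. The other named genes of these lists were Clec9a at 0.29 and Itgam at 0.19, with adjusted p = 0.769 and 0.657. The part of these cells in the Cd40 values was not tested.

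Cd40lg (10599802), whose product activated helper T cells display, measured 4.53, 4.71 and 4.51 in intrakidney tumors, against 4.55, 4.50 and 4.89 in subcutaneous tumors. Subcutaneous tumor 3 stood above the rest, and the groups overlap. The log2 fold change was -0.06 ± 0.12 (SE, adjusted p = 0.950 by limma). All 13 measured T cell genes had lower means in intrakidney tumors, with array means of 6.83 to 7.07 in intrakidney and 7.18 to 7.29 in subcutaneous tumors (p = 0.1 by the two-sided exact permutation test, the smallest possible), though 0 of 13 passed the adjusted threshold. The genes Cd3d and Cd3e, whose products signal for the T cell receptor, differed by -0.49 ± 0.08 and -0.41 ± 0.09 (SE, adjusted p = 0.0797 and 0.206 by limma). The part of T cell content in the values of Cd40lg, Fasl and Tnfrsf9 was not tested.

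Tnfrsf9 (10510580), the gene of 4-1BB, varied the most of the 10. It measured 10.97, 10.88 and 11.88 in intrakidney tumors, against 11.25, 11.42 and 11.23 in subcutaneous tumors. Intrakidney tumors 1 and 2 lay below all subcutaneous tumors and intrakidney tumor 3 lay above all of them, so the intrakidney values enclose the subcutaneous ones. The means were 11.24 ± 0.56 for intrakidney and 11.30 ± 0.11 for subcutaneous tumors (SD, n = 3 each). That intrakidney SD exceeded the intrakidney SD of 99.2% of all genes. The log2 fold change was -0.06 ± 0.25 (SE, adjusted p = 0.982 by limma), and its interval ran from 1.55-fold lower to 1.43-fold higher. Intrakidney tumor 3 set the value: without it the log2 fold change was -0.38 (adjusted p = 0.436), and without intrakidney tumor 1 or 2 it was 0.08 or 0.13.

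Intrakidney tumor 3 also had the highest kidney tubule mean (7.32) and the lowest T cell mean (6.83) of the 6 tumors. It had the highest neutrophil mean, 6.96 against 6.37 and 6.61 in the other intrakidney tumors and 6.21 to 6.28 in subcutaneous tumors. Its adipocyte (7.60) and carcinoma (10.76) means were the highest of the 6 too. Its fibroblast mean (9.50) lay above those of intrakidney tumors 1 and 2 (8.89 and 8.62) and below the subcutaneous means (9.53 to 9.70). Intrakidney tumor 2 was the lowest intrakidney tumor for the fibroblast and adipocyte lists, as for Tnfrsf9. For the tubule and neutrophil lists intrakidney tumor 1 was the lowest. The neutrophil genes S100a8 and Cxcr2 differed by 0.77 and 0.83 between sites (adjusted p = 0.266 and 0.438 by limma). The part of these cells in the Tnfrsf9 value was not tested.

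Tnfsf9 (10446229), the gene of the 4-1BB ligand, had the largest log2 fold change of the 10. It measured 8.29, 7.97 and 8.45 in intrakidney tumors, against 7.97, 7.95 and 7.91 in subcutaneous tumors. Intrakidney tumors 1 and 3 lay above every subcutaneous tumor, while intrakidney tumor 2 lay within the subcutaneous range, so the groups just overlap. The means were 8.23 ± 0.25 for intrakidney and 7.95 ± 0.03 for subcutaneous tumors (SD, n = 3 each). The 1.22-fold difference had an unadjusted p of 0.0473 in the limma fit and did not pass after adjustment (0.29 ± 0.12, SE, adjusted p = 0.587). Its interval ran from 1.003-fold to 1.49-fold higher. Of the intrakidney tumors, number 3 was the highest and number 2 the lowest for both Tnfsf9 and its receptor.

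**Figure D3:**
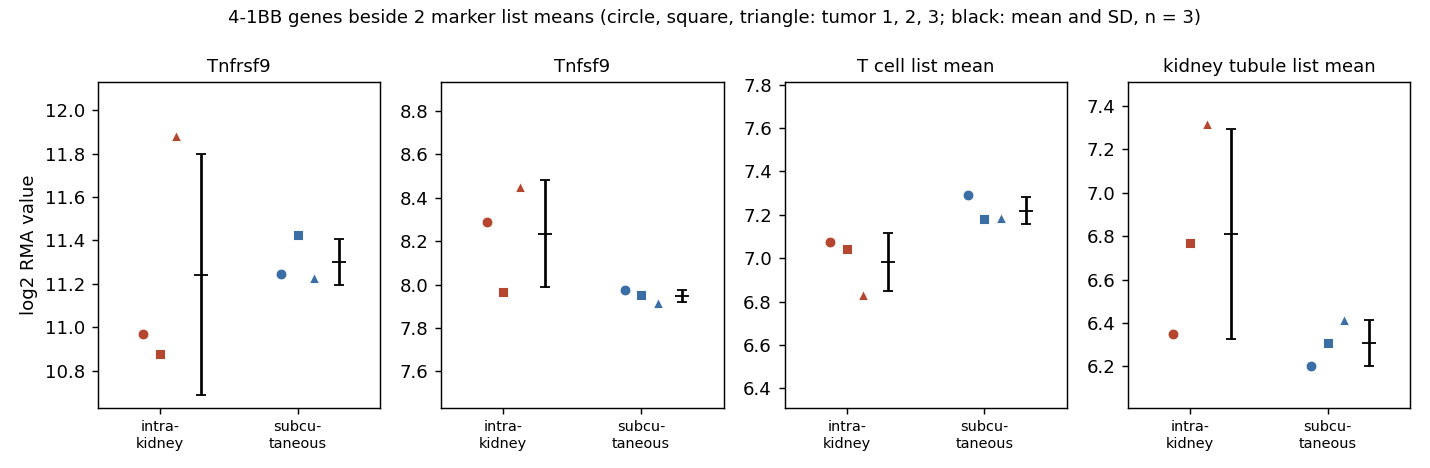
Log2 RMA values of Tnfrsf9 and Tnfsf9 beside the array means of the T cell and kidney tubule marker lists, for each intrakidney and subcutaneous tumor (mean and SD of 3 tumors in black, a span of 1.5 log2 units per panel). Intrakidney tumor 3, the triangle, is highest for Tnfrsf9 (11.88), Tnfsf9 (8.45) and the kidney tubule list (7.32) and lowest for the T cell list (6.83).

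The regions before the Tnfrsf9 and Fas start sites are shown, the only members whose windows held a match to the motifs below. Tnfrsf9 is also the member that varied the most, and RefSeq places 2 start regions there that the single transcript cluster does not separate. RefSeq promoters (GRCm38.p6) were given for 6 of the 10 genes, in 7 windows, and the 250 bases before each start site were searched on both strands for the letters GGGNNTTCC (an NF-kB motif), TGANTCA (AP-1), TTCNNNGAA (STAT) and GAAANNGAA (interferon response). The 3 windows printed lie on the plus strand, and capitals mark the matches.
Tnfrsf9, upstream start, chr4:150919905-150920154: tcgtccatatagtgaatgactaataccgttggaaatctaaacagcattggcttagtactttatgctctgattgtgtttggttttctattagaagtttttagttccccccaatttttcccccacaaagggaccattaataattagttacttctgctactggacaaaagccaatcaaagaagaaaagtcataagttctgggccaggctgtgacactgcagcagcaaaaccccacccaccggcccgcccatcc
Tnfrsf9, downstream start, chr4:150927749-150927998: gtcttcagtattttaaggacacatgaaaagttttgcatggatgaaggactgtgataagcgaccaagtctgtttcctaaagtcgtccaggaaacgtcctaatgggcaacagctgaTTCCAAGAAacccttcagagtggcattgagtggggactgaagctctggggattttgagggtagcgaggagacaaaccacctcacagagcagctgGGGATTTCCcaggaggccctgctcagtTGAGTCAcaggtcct
Fas, chr19:34290409-34290658: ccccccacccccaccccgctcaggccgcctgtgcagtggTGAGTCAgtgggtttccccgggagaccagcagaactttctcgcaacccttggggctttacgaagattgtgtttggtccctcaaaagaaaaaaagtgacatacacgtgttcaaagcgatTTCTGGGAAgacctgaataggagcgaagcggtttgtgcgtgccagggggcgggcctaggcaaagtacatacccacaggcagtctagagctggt

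The downstream Tnfrsf9 window held the NF-kB letters (GGGATTTCC, 42 to 34 bases before the start), the AP-1 letters (TGAGTCA, 15 to 9 bases before it) and the STAT letters (TTCCAAGAA, 136 to 128 bases before it), none of which overlap. Those letters occur in 4.98%, 6.75% and 7.02% of the 32851 promoter windows of the same length. The motifs were chosen after their matches had been seen, so these shares do not measure how unusual the matches are. The Fas window held the AP-1 and STAT letters, and the upstream Tnfrsf9 window and the windows of Casp8, Cflar, Fasl and Tnfsf10 held none of the 4 motifs, of which the interferon response letters occur in 7.13% of all windows. A match is a description of letters in the reference genome and shows no binding.

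The genes whose centred log2 values lay nearest to those of each therapy receptor over the 6 tumors were sought among 191 genes of the pathway and marker lists. The nearest lie below the median by the way they were picked, and genes outside these lists were not compared. For a receptor that varied little, such as Tnfrsf10b, other genes that varied little lie near. For Tnfrsf10b they were Tnfrsf11b, the decoy receptor osteoprotegerin, with a mean absolute difference of 0.02, then Tie1 and Vim at 0.04 each, against a median of 0.13 over the genes compared. For Cd40 they were Lyz2, the lysozyme gene of myeloid cells, at 0.04, Cd209a, a lectin gene of dendritic cells, and Htra2, a mitochondrial protease gene, both at 0.05, against a median of 0.14. For Tnfrsf9 they were Tnfaip3, which encodes the NF-kB feedback inhibitor A20, at 0.15, Tnfrsf26 at 0.16 and Tnfrsf23 at 0.17, against a median of 0.29. Tnfaip3 measured 9.30, 9.23 and 9.76 in intrakidney tumors and 9.30, 9.39 and 9.35 in subcutaneous tumors. Intrakidney tumor 3 was the highest here too, which a choice by likeness to Tnfrsf9 favours. Tnfrsf23, which encodes a TRAIL-binding receptor without a death domain, measured 10.43, 10.12 and 10.92 in intrakidney tumors and 10.88, 10.97 and 10.68 in subcutaneous tumors, where the low values of intrakidney tumors 1 and 2 are shared with Tnfrsf9 and the highest tumor is a subcutaneous one.

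Around the 10 genes, 94 of 105 listed genes of the same pathways were measured, and 0 of the 94 passed the adjusted threshold. At an unadjusted p of 0.05, 11 were higher and 0 lower in intrakidney tumors, against 4.72% and 3.71% of all genes. The TRAF and NF-kB genes, the route below CD40 and 4-1BB, held the lowest p value: 3 of 15 were higher at an unadjusted p of 0.05, and the median log2 fold change was 0.06 (0.039 to 0.10 without single arrays). Nfkbie, an inhibitor of NF-kB that NF-kB itself induces, measured 9.13, 9.08 and 9.12 in intrakidney tumors, against 8.67, 8.60 and 8.72 in subcutaneous tumors. The groups are well apart, and the log2 fold change of 0.44 ± 0.07 (SE) still missed the threshold (adjusted p = 0.0744 by limma). Nfkbia, another such inhibitor, differed by 0.38 ± 0.13 and Nfkb2, the precursor subunit of the non-canonical route that CD40 uses, by 0.29 ± 0.08 (SE, adjusted p = 0.441 and 0.350 by limma), without overlap of the groups for either. In this list the groups did not overlap for 4 higher genes and 1 lower gene, a state that 14.9% of all genes showed.

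Of the death complex and necroptosis genes, 1 of 16 was higher at an unadjusted p of 0.05, against 4.72% of all genes. The median was 0.06 (0.016 to 0.081 without single arrays). Ripk3, the kinase that drives necroptosis where caspase-8 is inactive, differed by 0.28 ± 0.10, and its target Mlkl by 0.15 ± 0.08, while the deubiquitinase gene Cyld differed by -0.17 ± 0.09 (SE, adjusted p = 0.4996, 0.710 and 0.699 by limma). Of the genes of the mitochondrial and executioner arm, 4 of 17 were higher at an unadjusted p of 0.05, and the median was 0.07 (0.039 to 0.098 without single arrays). These 4 included members of opposite function: Bcl2l1, which encodes the survival protein Bcl-xL, differed by 0.27 ± 0.08, Bid, which caspase-8 cleaves to engage mitochondria, by 0.22 ± 0.08, and Cycs, the cytochrome c gene, by 0.24 ± 0.09 (SE, adjusted p = 0.379, 0.492 and 0.513 by limma).

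Of the other receptors of the family, 2 of 24 were higher at an unadjusted p of 0.05, against 4.72% of all genes. Their median was -0.02 (-0.075 to 0.022 without single arrays, so of either sign). The 2 higher ones were the TWEAK receptor gene Tnfrsf12a at 0.24 ± 0.08 and Tnfrsf21, which encodes death receptor 6, at 0.18 ± 0.07, and Eda2r followed at -0.23 ± 0.10 (SE, adjusted p = 0.449, 0.584 and 0.630 by limma). Of the other ligands, 1 of 12 was higher and the median was -0.03 (-0.056 to 0.020 without single arrays, so of either sign). Tnf, the founding cytokine of the family, measured 8.32, 8.38 and 8.46 in intrakidney tumors, against 7.80, 8.09 and 8.10 in subcutaneous tumors, with no overlap and an adjusted p of 0.297 by limma. Cd70 and Tnfsf13b, which encode ligands that co-stimulate T cells and sustain B cells, differed by -0.25 and -0.16 (adjusted p = 0.619 and 0.623 by limma). The Tnfsf13b groups did not overlap either, at 7.05 to 7.17 in intrakidney and 7.24 to 7.35 in subcutaneous tumors.

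Fas and Tnfrsf10b are known targets of p53, and the stress sensor CHOP, encoded by Ddit3, is known to induce the death receptor 5 gene in human cells. Of the 10 measured p53 and stress response genes, 0 had an unadjusted p under 0.05 and the median log2 fold change was -0.01 (-0.048 to 0.0091 without single arrays, so of either sign). The lowest p values were those of Perp at 0.23 ± 0.11, Phlda3 at 0.11 ± 0.08 and Zmat3 at 0.06 ± 0.07 (SE, adjusted p = 0.652, 0.807 and 0.891 by limma).

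**Figure D4:**
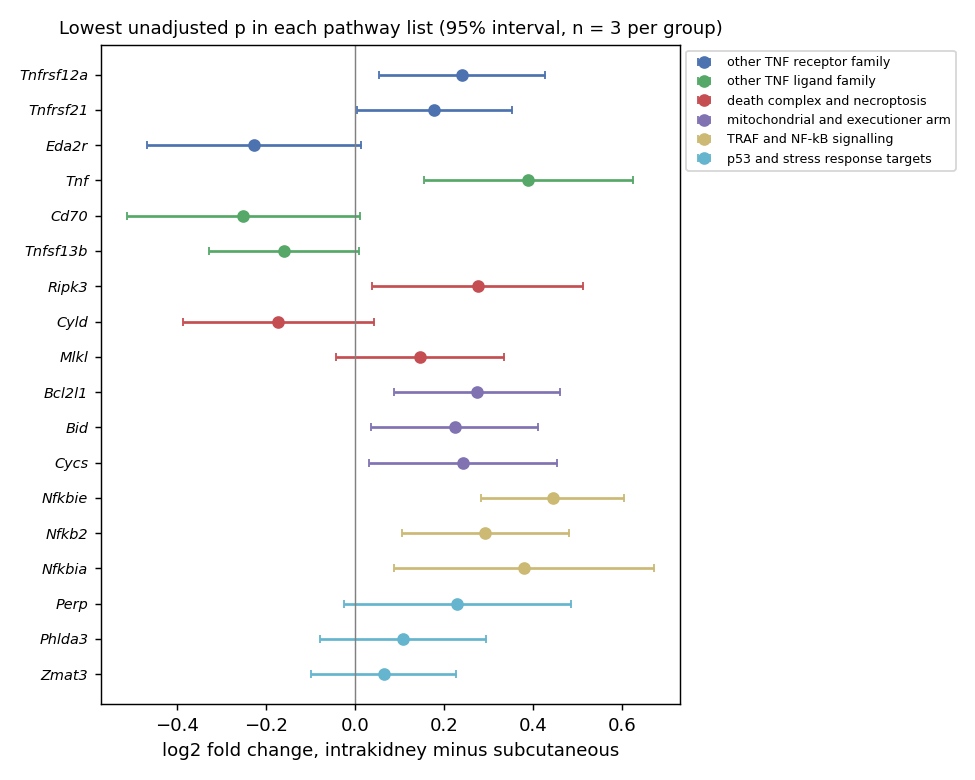
Log2 fold change, intrakidney minus subcutaneous (horizontal axis), of the 3 genes with the lowest unadjusted p in each of 6 pathway lists (points, coloured by list) with the 95% confidence interval from limma (bars, n = 3 per group). Of these genes, Nfkbie has the largest value (0.44), and none passed the adjusted threshold.

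Of the 191 pathway and marker genes, 5 passed on the same arrays, against 0.231% of all genes, and 1 to 7 passed when single arrays were left out. The lists were chosen with earlier results of these data known, so that share does not measure how unusual the count is. All 5 came from the endothelium, fibroblast and adipocyte marker lists, and which cells of the tumors expressed them was not measured. The capillary gene Emcn differed by 0.72 ± 0.10, the fibroblast matrix gene Postn by -1.66 ± 0.22, and the adipocyte genes Car3, Fabp4 and Cidec by 3.41 ± 0.22, 2.08 ± 0.15 and 0.66 ± 0.08 (SE, adjusted p = 0.0460, 0.0460, 0.00632, 0.00637 and 0.0280 by limma). The vessel receptor gene Tek differed by 0.40, the matrix gene Lum by -1.07, the tubule genes Cyp2e1 and Pck1 by 2.55 and 0.64, and the epithelial genes Lcn2 and Cdh1 by 1.22 and -0.52, all with an adjusted p above the threshold. Set beside these, the interval ends of the 10 receptor, ligand and death-signalling genes ran from -0.63, for Tnfrsf9, to 0.57, for Tnfsf9.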

How the data were processed

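RNA of 6 tumors was hybridised as biotinylated cRNA to Mouse Gene 1.0 ST arrays, per the labels. The deposited values are log2 values that the authors made by RMA in the affy package, as the submitters' processing notes name them. Versions, settings and genome build are not given in the sources used here. The values ran from 2.31 to 15.07, which set the log2 scale. Of 35512 transcript clusters, 21789 were paired with exactly 1 gene symbol. Per gene the cluster with the highest mean over the 6 arrays was kept, which left 19938 genes, with no filter on dim genes.

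The sites were compared by limma 3.58.1 (R 4.3.3, lmFit and eBayes, two-sided), with Benjamini-Hochberg adjustment over all genes, and list means by an exact permutation test (scipy 1.17.1). Arrays give no read depth, and their number limits the precision. In 10 simulations over 19938 genes, 57.8% of changes of 0.5 on the log2 scale and 98.4% of changes of 1 were recovered. Each simulation drew normal noise with the variance that limma fitted per gene, equal in both groups. Changes of 0.5, 1 and 2 were planted together, and the number and sizes planted affect the share recovered. Recovery in the data can be lower. Measured differences of -0.49 for Cd3d and 0.44 for Nfkbie missed the threshold, and the SE of Tnfrsf9 was 0.25. Named were all 10 members, the 3 genes with the lowest p of each pathway list and up to 2 of each marker list, and the genes nearest in pattern. The members and lists were chosen with earlier results of these data known, and the motifs after their matches had been seen. The alternatives tried stand in the closing section. Listed genes without a cluster of their own, among them Ripk1, Bax, Traf3 and Nfkb1, were not analysed here.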

Additional observations from a re-analysis of the deposited data

How the results depend on the processing

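None of the 10 genes passed the adjusted threshold under any alternative run: quantile normalization, median centring, an intensity trend with robust prior, array weights, an offset of 16, every transcript cluster tested, the replicate number as a block, each array left out in turn, no dim genes (which left 6 of the 10), and, chosen after seeing the data, intrakidney tumor 1 alone against the subcutaneous tumors, with the lone tumor assumed to vary like the others. The lowest adjusted p was 0.0774, for Tnfsf9 with array weights. Casp8, Tnfsf9, Cd40 and Fasl kept their sign throughout, Casp8 between 0.12 and 0.29 and Tnfsf9 between 0.18 and 0.42. Of 148 values for the 10 genes, 20 had the other sign, and the cause was not tested. Array weights gave 0.23 for Tnfrsf9, -0.016 for Fas and 0.00013 for Cflar. Cflar was also 0.0056 after median centring, 0.051 with intrakidney tumor 1 alone, and 0.047 and 0.051 on the other two clusters. Leaving out single arrays gave -0.0048 to 0.10 for Tnfrsf10b, -0.069 to 0.13 for Tnfsf10, -0.14 to 0.057 for Cd40lg, -0.38 to 0.13 for Tnfrsf9, -0.017 to 0.037 for Fas and -0.041 to 0.059 for Cflar. Of the marker list differences, those of B cells (-0.031 to 0.089) and dendritic cells (-0.050 to 0.046) changed sign, as did the medians of the other receptors, the other ligands and the p53 genes, whose ranges stand beside them.

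The count over all genes (46) was 138 with trend and robust prior, 624 with array weights, 110 without dim genes, 74 with an offset, 30 with intrakidney tumor 1 alone, 0 with every cluster tested, and 2 to 33 without single arrays (2, 3 and 4 without subcutaneous tumors 1, 2 and 3, and 21 without intrakidney tumor 1). For the 191 pathway and marker genes, of which 5 passed, the counts were 9 with trend and robust prior, 26 with array weights, 8 without dim genes, 9 with an offset, 7 with intrakidney tumor 1 alone, 0 with every cluster tested, and 1 to 7 without single arrays. With the replicate block, 0 of all genes and 0 of the 191 passed. Same-numbered tumors deviated together with correlations of 0.37, -0.16 and 0.10, so the numbers were not taken to pair the tumors.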
